A study of Mus musculus with 24 samples.

Results

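Glycolysis breaks glucose down to pyruvate and lactate, and many of its genes belong to the transcriptional response to low oxygen. The 35 genes described here are glucose and lactate transporters, glycolytic enzymes, regulators of glycolytic flux, the hypoxia-inducible factor subunit Hif1a with its prolyl hydroxylases, and further targets of the hypoxia response. They were chosen from results of this dataset, namely the comparison of sgMed12 with sgControl cells, so that comparison is given as a description, and nothing is read from any test of it. The 35 symbols stood among 55487 genes in each of the 2 deposited tables and filled 36 lines there, because Aldoa was listed a second time at 0 in every library.

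The study examined which factors shape gene expression in lymphoid progenitors (LPs), and the cells were Ebf1-deficient LP lines from the fetal liver of Rosa26-Cas9 knock-in mice (Cas9-LPs), so that all groups lacked the same B lineage factor and carried Cas9. Cells were grown on mitomycin C-treated OP9 stroma with SCF, Flt3L and IL-7 and infected with a retrovirus that carried sgRNAs and the marker hNGFR. Each targeted gene was given as a pool of 3 sgRNA vectors, and sgControl carried sgRNAs against luciferase. At 5 days after transduction hNGFR+CD45+ cells were sorted, and 3′ mRNA tags were sequenced (QuantSeq), in 3 biologically independent replicates per group. Experiment 1 held sgControl and sgCbfb cells as LPs or as Phase 1 cells, the latter after 2 days of Notch stimulation on OP9-DLL4 stroma. Experiment 2 held LPs with sgControl, sgCbfb, sgCTCF or sgMed12. The cells measured were a sorted bulk population, and the share of cells edited was not given in the deposited tables.

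When oxygen is plentiful, prolyl hydroxylases (the Egln proteins) mark the HIF-1α protein for degradation, and when oxygen is scarce the protein persists and pairs with ARNT at promoters and enhancers. Its targets include glucose transporters, nearly every glycolytic step, lactate export and the kinase that holds pyruvate back from mitochondria. Lymphoid progenitors raise glycolysis when they proliferate, under the control of IL-7 and Notch signals. Cbfb is the shared partner of the Runx factors, CTCF organizes chromatin loops, and Med12 belongs to the kinase module of the Mediator complex.

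Values were in CPM, the reads on a gene divided by the reads on all genes of that library and scaled to a common total. Experiment 1 had 1363263 to 1743319 reads on genes per library and experiment 2 had 3354483 to 4326782, so that 1 read stood for 0.574 to 0.734 CPM and for 0.231 to 0.298 CPM. The experiments were normalized as separate tables. A gene was tested with limma where 3 or more libraries of the experiment held 1 CPM or more, and a gene passed at an adjusted p under 0.05. In experiment 1, 33 of the 35 genes reached the filter, and in experiment 2 it was 34. The enzyme Aldoc stayed at or below 2.36 CPM in every library of experiment 1 and at or below 1.62 CPM in experiment 2. The collagen hydroxylase subunit P4ha2 did not exceed 0.713 CPM in experiment 1 and lay between 0.282 and 2.41 CPM in experiment 2.

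There were 2 libraries that stood apart from their replicates. Between replicates of a group, the chi-square per degree of freedom over genes was 2.5 to 5.25 in the other 6 groups. Phase 1 sgControl replicate 3 gave 11.6 and 9.38 against replicates 1 and 2, which gave 3.71 against each other. The corresponding values of sgMed12 replicate 2 were 19.4 and 10.3, against 4.78 between replicates 1 and 3.

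The transcripts of the targeted genes were read first. Cbfb in experiment 1 was at 92.7, 91.0 and 75.8 CPM in sgControl LPs and 45.8, 39.0 and 35.7 in sgCbfb LPs, with no overlap, and it fell (log2 fold change -1.09 ± 0.22 SE, adjusted p = 0.00548). In Phase 1 cells the values were 73.4, 81.3 and 44.7 CPM with sgControl and 44.1, 63.5 and 54.2 with sgCbfb, which overlapped and did not pass (log2 fold change -0.27 ± 0.22 SE, adjusted p = 0.591). Without Phase 1 sgControl replicate 3, which stood apart, the values did not overlap, and the test did not pass either (log2 fold change -0.53 ± 0.21 SE, adjusted p = 0.155). Cbfb in experiment 2 was at 110.0, 109 and 124 CPM with sgControl and fell to 48.3, 41.6 and 55.4 CPM with sgCbfb (log2 fold change -1.23 ± 0.16 SE, adjusted p = 4.34e-06). Ctcf was at 404, 356 and 413 CPM with sgControl and fell to 330.3, 272 and 314 CPM with sgCTCF (log2 fold change -0.36 ± 0.10 SE, adjusted p = 0.021), a call that was lost without sgControl replicate 1 (adjusted p = 0.0994) or 3 (0.112) or sgCTCF replicate 2 (0.158). Med12 was at 6.59, 4.43 and 4.38 CPM with sgControl and 9.61, 3.20 and 8.23 with sgMed12, where the groups overlapped. None of these transcript levels measures editing or protein.

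In LPs of experiment 2 the genes were lower with sgCTCF than with sgControl at most steps of glycolysis, whereas Hif1a and Vegfa were higher. Of the 34 genes tested, 19 fell, against 4.2% of all 13177 genes, and 2 rose, against 6.13%. The median log2 fold change was -0.65 over the 34 genes and -0.02 over all genes tested. This contrast shares the sgControl libraries with the contrast that chose the genes, so high control values would enter both. The sgCTCF libraries were therefore also set against the sgCbfb libraries, a contrast added after the data had been seen that compares no sgControl library and shares the sgCTCF libraries. There 19 of the 34 genes were lower and passed, against 10.9% of all genes, and 1 was higher and passed, Hif1a, against 11.5%, with medians of -0.57 and -0.02. In this bulk population fewer cells with high transcript levels and less RNA per cell cannot be told apart.

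With sgMed12 the mean was below that of sgControl for 30 of the 34 genes, with a median log2 ratio of the means of -0.65 beside -0.02 over all genes tested. For 24 genes all 3 sgMed12 libraries lay below all 3 sgControl libraries, where this held for 11.9% of all genes tested. The limma threshold was passed by 20 of the 34 genes in the lower direction, against 4.7% of all genes, and nothing was read from either count because the genes were chosen from this contrast. The 4 genes whose mean was not lower were Hif1a (0.06), Vegfa (0.06), Pfkfb3 (0.18) and Bhlhe40 (0.32), given as log2 ratios and named after their values were seen. Nearest to no difference among the genes with a lower mean was Eno1 at -0.13, followed by Tpi1 at -0.27. Without sgMed12 replicate 2, which stood apart, the median was -0.63, 30 means were lower, and 25 genes had both remaining libraries below all controls, against 25.2% of all genes. The ratio was then 0.07 for Eno1, -0.12 for Pfkfb3, 0.27 for Vegfa and -1.57 for Bnip3. For P4ha2, at no more than 2.41 CPM in any library, it moved from -0.71 to -2.33.

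Mitochondrial transcripts took 13.7, 8.44 and 11.2% of the reads of the sgMed12 libraries, against 6.76% to 8.15% in the other libraries of experiment 2. When library totals were taken without mitochondrial genes and the 10 most abundant genes, the median log2 ratio of all genes moved from -0.02 to 0.10 and that of the 34 genes from -0.65 to -0.54. The difference between both medians was -0.64 with either total and with median-of-ratios scaling. Each scaling multiplies all genes of a library by a common factor and so moves both medians nearly alike. This difference therefore could not show a part of the mitochondrial share, and nothing was read from it. Of all genes that passed for sgMed12, 35.0% were higher with library totals, 45.9% with median-of-ratios scaling and 66.6% with totals without mitochondrial and the 10 most abundant genes. By library, the median difference of the 34 genes from the sgControl mean was -0.65, -0.66 and -0.64 (log2 scale) in sgMed12 and -0.73, -0.64 and -0.48 in sgCTCF. The part of the mitochondrial share in these values was not tested.

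The sgCbfb libraries of experiment 2 differed less from sgControl over the whole list. Of the 34 genes, 2 rose (Ndrg1 and Vegfa), against 6.91% of all genes, and 3 fell (Higd1a, Egln1 and Ldha), against 5.57%. The shares of the list were near those of all genes, and the medians were -0.09 and -0.01. This contrast also shares the sgControl libraries with the contrast that chose the genes, so high control values would enter both. Higd1a, Egln1 and Ldha did not pass in experiment 1, which had separate controls. The summed level of the listed genes was 4653, 5116 and 4552 CPM in the sgControl libraries, 4189, 4926 and 4370.3 in sgCbfb, 2855, 2995 and 3425 in sgCTCF and 3639, 2829 and 3495 in sgMed12. All sgCTCF and sgMed12 sums lay below every sgControl and sgCbfb sum.

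**Figure D1:**
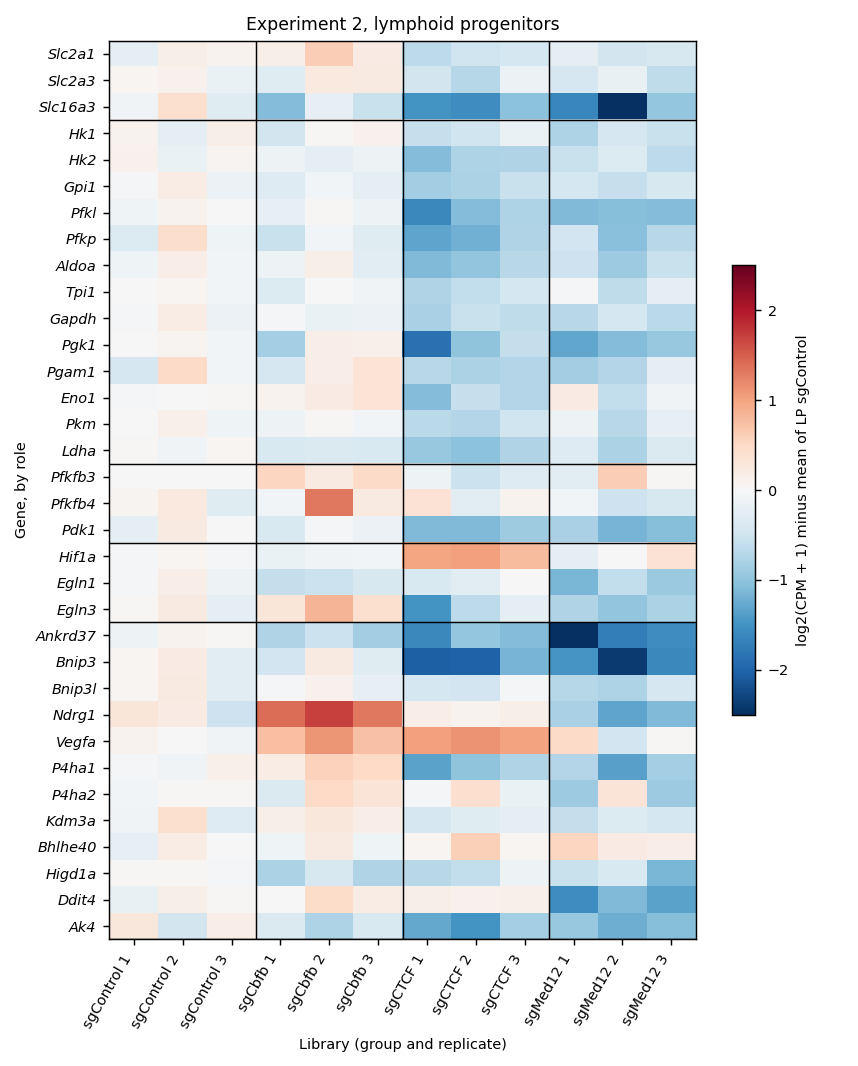
Heat map of the listed genes (vertical, by role) in the 12 libraries of experiment 2 (horizontal), colored by log2(CPM + 1) minus the mean of the sgControl libraries. Bnip3 (-1.74 for sgCTCF, log2 fold change) and most enzymes are below the controls in both the sgCTCF and the sgMed12 columns, and Hif1a (0.93) and Vegfa (1.05) are above them in the sgCTCF columns.

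Among the transporters, the lactate exporter Slc16a3 had the lowest ratios with sgCTCF and sgMed12. Slc16a3 was at 27.2, 38.7 and 23.4 CPM in the 3 sgControl libraries, 13.1, 25.2 and 19.4 in sgCbfb, 9.66, 9.19 and 13.9 in sgCTCF, and 8.76, 4.36 and 14.5 in sgMed12. All sgCTCF and all sgMed12 libraries lay below the lowest sgControl library, and the sgCbfb libraries overlapped with the controls. Slc16a3 fell with sgCTCF (log2 fold change -1.36 ± 0.31 SE, adjusted p = 0.00415), and its sgMed12 mean was 30.9% of the sgControl mean (log2 ratio -1.69). Against sgCbfb its sgCTCF values overlapped and did not pass (log2 fold change -0.74 ± 0.31 SE, adjusted p = 0.0869). The glucose transporter Slc2a1 had a mean of 39.4 ± 5.70 CPM (SD, n = 3) with sgControl and fell to 26.8 ± 1.92 with sgCTCF (log2 fold change -0.53 ± 0.16 SE, adjusted p = 0.0375). That call was lost without sgControl replicate 2 (adjusted p = 0.144) or 3 (0.14) and without sgCTCF replicate 1 (0.146), 2 (0.0953) or 3 (0.0637), and without the filter (0.0583), with totals without mitochondrial and the 10 most abundant genes (0.0576) or by DESeq2 (0.0568). Slc2a1 was also lower with sgCTCF than with sgCbfb (log2 fold change -0.85 ± 0.16 SE, adjusted p = 0.000335). Slc2a3, a second glucose transporter, did not pass (log2 fold change -0.44 ± 0.22 SE, adjusted p = 0.225). The median over the 3 transporters was -0.53 for sgCTCF and 0.05 for sgCbfb as log2 fold changes, and -0.43 for sgMed12 as log2 ratios of the means.

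The enzymes of the pathway were lower with sgCTCF from hexokinase to lactate dehydrogenase. Of 13 enzymes tested, 11 fell (Hk2, Gpi1, Pfkl, Pfkp, Aldoa, Tpi1, Gapdh, Pgk1, Eno1, Pkm and Ldha), against 4.2% of all genes. The sgControl libraries of this contrast are those of the contrast that chose the genes. The hexokinase Hk1 (-0.41 ± 0.19, adjusted p = 0.192) and the mutase Pgam1 (-0.74 ± 0.28, adjusted p = 0.101) did not pass. Medians over the 13 enzymes were -0.80 for sgCTCF, -0.70 for sgCTCF against sgCbfb and -0.12 for sgCbfb, and the median log2 ratio of the means was -0.61 for sgMed12.

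Phosphofructokinase carries out the committed step of glycolysis, and its liver and platelet forms were measured as Pfkl and Pfkp. Pfkl was at 143, 164 and 155 CPM in the 3 sgControl libraries, 133, 156 and 139.8 in sgCbfb, 49.6, 72.1 and 90.1 in sgCTCF, and 71.2, 73.2 and 71.8 in sgMed12. Pfkp was at 62.5, 109 and 74.0 CPM in the 3 sgControl libraries, 53.7, 75.6 and 64.2 in sgCbfb, 31.4, 34.0 and 46.9 in sgCTCF, and 56.8, 38.1 and 48.8 in sgMed12. For both genes every sgCTCF and every sgMed12 library lay below every sgControl library, while sgCbfb overlapped with sgControl. Pfkl fell with sgCTCF (log2 fold change -1.15 ± 0.15 SE, adjusted p = 8.05e-06), as did Pfkp (log2 fold change -1.09 ± 0.19 SE, adjusted p = 0.000327), and the sgMed12 mean of Pfkl was 46.8% of the sgControl mean. Against sgCbfb the log2 fold changes with sgCTCF were -1.04 ± 0.15 (adjusted p = 6.03e-06) for Pfkl and -0.78 ± 0.19 (adjusted p = 0.00346) for Pfkp.

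Pgk1, which makes the pathway's early ATP, had fewer reads. Pgk1 was at 22.2, 23.3 and 21.2 CPM in the 3 sgControl libraries, 11.9, 25.2 and 24.2 in sgCbfb, 5.37, 10.6 and 14.3 in sgCTCF, and 8.48, 9.88 and 11.1 in sgMed12. The sgCTCF and sgMed12 libraries were all below the controls, and sgCbfb replicate 1 was also low. Pgk1 fell with sgCTCF (log2 fold change -1.16 ± 0.29 SE, adjusted p = 0.00925), a call that was lost without sgCTCF replicate 1 (log2 fold change -0.80, adjusted p = 0.0981). Against sgCbfb the groups overlapped and the call (-0.97 ± 0.29, adjusted p = 0.0152) was lost without sgCbfb replicate 2 (adjusted p = 0.0978) or 3 (0.09) or sgCTCF replicate 1 (0.149). The mean with sgMed12 was 44.1% of sgControl.

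Ldha, which converts pyruvate to lactate, was lower in all 3 targeted groups. Ldha was at 798, 731 and 805 CPM in the 3 sgControl libraries, 595, 607 and 597 in sgCbfb, 403, 383 and 461 in sgCTCF, and 624, 447 and 608 in sgMed12. Each targeted group lay wholly below sgControl, and the sgCTCF libraries also lay below the sgCbfb libraries. Ldha fell with sgCTCF (log2 fold change -0.91 ± 0.11 SE, adjusted p = 4.81e-06) and by a smaller estimate with sgCbfb (log2 fold change -0.37 ± 0.11 SE, adjusted p = 0.026). The sgCbfb call was lost without sgControl replicate 1 (adjusted p = 0.102) or 3 (0.103) and without sgCbfb replicate 1 (0.0741), 2 (0.0697) or 3 (0.0788), and also without the filter (0.0807).

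The enolase Eno1 was low with sgCTCF and spread widely with sgMed12. Eno1 was at 72.0, 73.8 and 74.8 CPM in the 3 sgControl libraries, 77.8, 84.5 and 94.0 in sgCbfb, 34.1, 48.7 and 44.1 in sgCTCF, and 84.5, 47.9 and 69.5 in sgMed12. The sgCTCF libraries lay below sgControl, the sgCbfb libraries lay above it, and sgMed12 overlapped with sgControl, with replicate 2 the lowest of its group. Eno1 fell with sgCTCF against sgControl (log2 fold change -0.80 ± 0.16 SE, adjusted p = 0.00189) and was lower than with sgCbfb (log2 fold change -1.01 ± 0.16 SE, adjusted p = 4.37e-05). Reads of Eno1 and Gapdh could come from other loci or be lost from the count, since both share sequence with other genes. Of the 75-base stretches in the last 400 bases of Eno1, 74.8% also occur in 1 other gene, Eno1b, and 79.1% of those of Gapdh occur in 66 other genes. No such stretch was shared for the other genes of the list. Only exact matches to the longest coding transcript of each gene were searched, so near copies and other 3′ ends were not covered. Another annotated gene overlaps Hif1a, Pfkfb3, Pkm, Slc2a1 and Slc2a3 on the same strand, and the share of reads it takes is unknown.

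The remaining enzymes that passed with sgCTCF are given together. Their estimates were -0.93 for Aldoa (aldolase), -0.87 for Hk2 (hexokinase), -0.74 for Gpi1 (glucose phosphate isomerase), -0.66 for Gapdh, -0.64 for Pkm (pyruvate kinase) and -0.60 for Tpi1 (triose phosphate isomerase), as log2 fold changes. Against sgCbfb they were -0.85, -0.70, -0.54, -0.55, -0.59 and -0.46 in the same order and passed. Of these calls against sgCbfb, that of Tpi1 was lost without sgCbfb replicate 2 (adjusted p = 0.0636) or sgCTCF replicate 1 (0.0701).

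**Figure D2:**
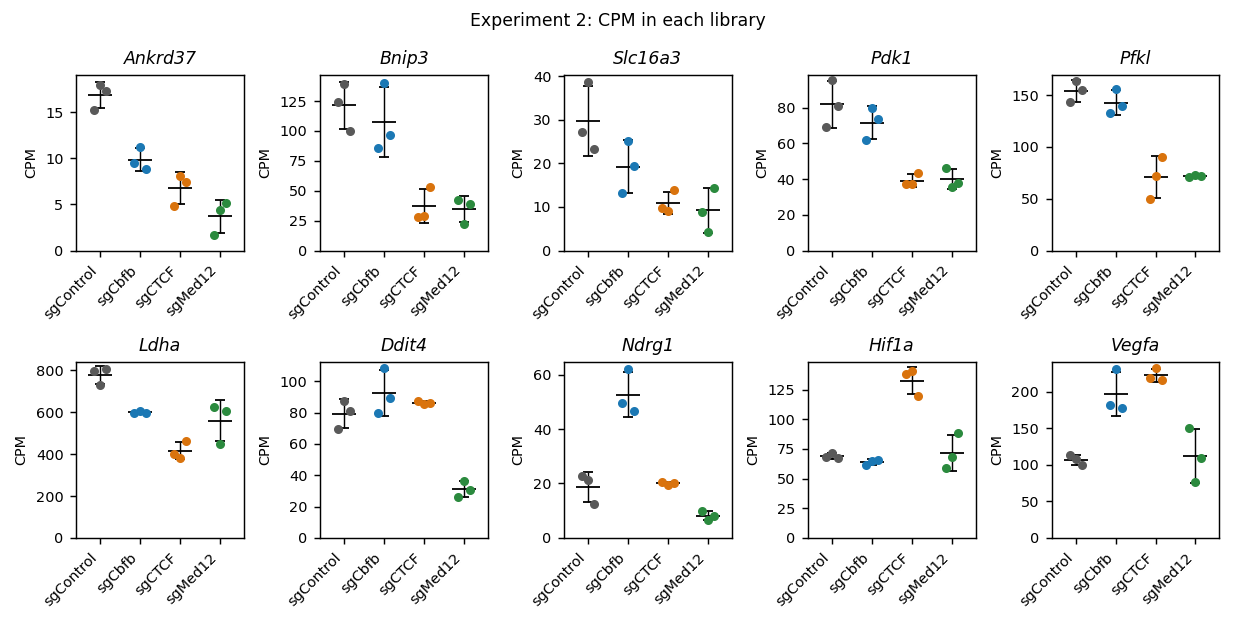
Levels (CPM, vertical) of 10 genes in each library of experiment 2 by group (horizontal), with points for libraries and bars for mean ± SD. Ankrd37, Bnip3, Slc16a3, Pdk1, Pfkl and Ldha are below the controls with sgCTCF and with sgMed12, Ddit4 is low with sgMed12 (26.3, 36.3 and 30.7 CPM), Ndrg1 is high with sgCbfb (49.5, 61.9 and 46.6 CPM), and Hif1a is high with sgCTCF (138, 140.3 and 119 CPM).

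Of 3 regulators of flux, Pdk1, the kinase that shuts off pyruvate dehydrogenase, passed for sgCTCF. Pdk1 was at 69.1, 95.4 and 80.8 CPM in the 3 sgControl libraries, 61.7, 79.6 and 73.3 in sgCbfb, 37.0, 37.0 and 43.2 in sgCTCF, and 46.1, 35.5 and 38.0 in sgMed12. The sgCTCF and sgMed12 libraries all lay below the sgControl and sgCbfb libraries, which overlapped with each other. Pdk1 fell with sgCTCF (log2 fold change -1.04 ± 0.15 SE, adjusted p = 3.03e-05), was also lower than with sgCbfb (log2 fold change -0.85 ± 0.15 SE, adjusted p = 0.000103), and had an sgMed12 mean of 48.7% of sgControl. Pfkfb3 and Pfkfb4 make the compound that activates phosphofructokinase. Their log2 fold changes with sgCTCF were -0.32 ± 0.21 (adjusted p = 0.388) and 0.05 ± 0.33 (adjusted p = 0.952). Against sgCbfb, Pfkfb3 passed (-0.74 ± 0.21, adjusted p = 0.0106), but not without sgCTCF replicate 2 (adjusted p = 0.0625).

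Hif1a, which encodes the oxygen-regulated subunit, moved opposite to most of the genes with sgCTCF. Hif1a was at 67.8, 71.8 and 67.2 CPM in the 3 sgControl libraries, 61.4, 65.2 and 65.8 in sgCbfb, 138, 140.3 and 119 in sgCTCF, and 58.8, 68.3 and 88.6 in sgMed12. All sgCTCF libraries were above all libraries of the other 3 groups, and sgMed12 overlapped with sgControl. Hif1a rose with sgCTCF against sgControl (log2 fold change 0.93 ± 0.13 SE, adjusted p = 2.92e-05) and was higher than with sgCbfb (log2 fold change 1.03 ± 0.13 SE, adjusted p = 1.47e-06). The HIF-1α protein was not measured here.

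The prolyl hydroxylases Egln1 and Egln3 differed between the groups. Egln1 was at 116, 134 and 109.8 CPM in the 3 sgControl libraries, 78.4, 81.8 and 90.2 in sgCbfb, 91.8, 98.0 and 118 in sgCTCF, and 54.0, 78.2 and 62.2 in sgMed12. Egln3 was at 49.1, 55.8 and 40.2 CPM in the 3 sgControl libraries, 59.0, 86.6 and 63.2 in sgCbfb, 16.4, 30.1 and 41.1 in sgCTCF, and 28.0, 23.8 and 27.2 in sgMed12. Egln1 was below sgControl in all sgCbfb and sgMed12 libraries, and Egln3 was below sgControl in all sgMed12 libraries and above it in all sgCbfb libraries. Egln1 fell with sgCbfb (log2 fold change -0.52 ± 0.14 SE, adjusted p = 0.0108), although not without sgControl replicate 2 (adjusted p = 0.0746) or sgCbfb replicate 1 (0.0541), and it did not pass with sgCTCF (log2 fold change -0.23 ± 0.14 SE, adjusted p = 0.348). Egln3 fell with sgCTCF (log2 fold change -0.79 ± 0.22 SE, adjusted p = 0.0215), with groups that overlapped. This call was lost without sgCTCF replicate 1 (adjusted p = 0.221) or 2 (0.0506) and without sgControl replicate 1 (0.0751) or 2 (0.101), and also without the filter (0.0785). Against sgCbfb, Egln3 was lower with sgCTCF (log2 fold change -1.30 ± 0.22 SE, adjusted p = 8.26e-05).

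Promoter sequences are shown for Bnip3, Slc16a3 and Ankrd37, which had the lowest values with sgCTCF and sgMed12 relative to sgControl, and for Hif1a, which was higher with sgCTCF. Each runs 5′ to 3′ from 250 bases before to 50 bases after an annotated start (RefSeq, build GRCm38.p6), at chr7:138909457-138909756 on the minus strand for Bnip3, chr11:120948817-120949116 on the plus strand for Slc16a3, chr8:45999801-46000100 on the minus strand for Ankrd37, and chr12:73907617-73907916 on the plus strand for Hif1a. The genes themselves lie at chr7:138890836-138909519 (Bnip3, ENSMUSG00000078566), chr11:120948480-120960868 (Slc16a3, ENSMUSG00000025161), chr8:45996902-46005707 (Ankrd37, ENSMUSG00000050914) and chr12:73901375-73947530 (Hif1a, ENSMUSG00000021109) in GENCODE M21. Capitals mark ACGTG on either strand, the core of the element that HIF dimers bind.
Bnip3: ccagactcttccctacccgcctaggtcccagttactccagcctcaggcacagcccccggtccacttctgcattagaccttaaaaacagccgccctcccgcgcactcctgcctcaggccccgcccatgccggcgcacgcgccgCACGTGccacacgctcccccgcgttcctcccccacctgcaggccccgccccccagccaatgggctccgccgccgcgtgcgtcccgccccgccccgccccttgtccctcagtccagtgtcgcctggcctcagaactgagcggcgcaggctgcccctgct
Slc16a3: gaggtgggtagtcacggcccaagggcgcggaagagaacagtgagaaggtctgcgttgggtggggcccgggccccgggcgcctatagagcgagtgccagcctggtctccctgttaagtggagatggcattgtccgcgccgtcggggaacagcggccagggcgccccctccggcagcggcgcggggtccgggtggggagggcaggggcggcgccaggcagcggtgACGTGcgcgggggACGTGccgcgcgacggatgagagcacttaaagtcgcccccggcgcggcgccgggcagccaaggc
Ankrd37: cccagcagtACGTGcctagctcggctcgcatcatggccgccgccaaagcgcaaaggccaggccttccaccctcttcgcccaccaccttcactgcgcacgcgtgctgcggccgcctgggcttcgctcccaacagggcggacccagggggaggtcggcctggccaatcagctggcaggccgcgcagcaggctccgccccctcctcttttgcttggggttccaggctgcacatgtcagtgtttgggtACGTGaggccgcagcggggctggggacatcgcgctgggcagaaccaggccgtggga
Hif1a: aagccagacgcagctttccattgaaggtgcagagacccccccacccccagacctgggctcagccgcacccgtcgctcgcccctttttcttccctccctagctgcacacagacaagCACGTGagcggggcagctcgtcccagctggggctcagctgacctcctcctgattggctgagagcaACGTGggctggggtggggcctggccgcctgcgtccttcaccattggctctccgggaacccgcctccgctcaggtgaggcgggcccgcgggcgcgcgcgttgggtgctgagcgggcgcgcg

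ACGTG was present on either strand 2 times in the Bnip3 window, 2 times in that of Slc16a3, 2 times in that of Ankrd37 and 3 times in that of Hif1a, where each CACGTG counts on both strands. Windows were found for 31 of the 35 genes (47 windows) and not for Bhlhe40, Bnip3l, Ndrg1 and Slc2a3. ACGTG was in 25 of 47 (53.2%) of them and in 19.6% of all 32851 windows of this length. The related GCGTG was in 29 of 47 (61.7%) and in 32.4% of all windows. The palindrome CACGTG, which contains ACGTG and is bound by other factors of the same class, was in 5 of 47 (10.6%) and in 7.2% of all windows, and ACGTG outside CACGTG was in 22 of 47 (46.8%) and 13.6%. These matches describe letters only, and hypoxia targets are in part defined by such elements.

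Bnip3, a receptor for the removal of mitochondria, had the lowest log2 fold change of the list with sgCTCF. Bnip3 was at 124, 139.7 and 100.3 CPM in the 3 sgControl libraries, 85.6, 140.2 and 96.7 in sgCbfb, 28.4, 29.0 and 53.4 in sgCTCF, and 42.7, 22.1 and 38.9 in sgMed12. Every sgCTCF and sgMed12 library was below every sgControl and sgCbfb library, and the sgCbfb libraries overlapped with sgControl. Bnip3 fell with sgCTCF (log2 fold change -1.74 ± 0.23 SE, adjusted p = 9.79e-06), was lower than with sgCbfb (log2 fold change -1.55 ± 0.23 SE, adjusted p = 9.94e-06), and had an sgMed12 mean of 28.5% of sgControl. Its relative Bnip3l did not pass with sgCTCF (log2 fold change -0.32 ± 0.15 SE, adjusted p = 0.211).

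Ankrd37, an ankyrin repeat gene induced in hypoxia, had the lowest sgMed12 ratio of the list over all 3 libraries. Without sgMed12 replicate 2 its ratio was -2.31, beside -2.33 for P4ha2, whose sgControl mean was 1.42 CPM. Ankrd37 was at 15.3, 18.0 and 17.3 CPM in the 3 sgControl libraries, 9.54, 11.3 and 8.82 in sgCbfb, 4.83, 8.07 and 7.39 in sgCTCF, and 1.70, 4.36 and 5.11 in sgMed12. All 3 targeted groups lay below sgControl. Ankrd37 fell with sgCTCF (log2 fold change -1.22 ± 0.30 SE, adjusted p = 0.00838), a call lost without sgCTCF replicate 1 (log2 fold change -1.03, adjusted p = 0.065). Against sgCbfb it did not pass (log2 fold change -0.50 ± 0.30 SE, adjusted p = 0.257). The sgMed12 mean was 22.1% of the sgControl mean (log2 ratio -2.18).

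Ak4, a mitochondrial adenylate kinase, and P4ha1, a subunit of the collagen prolyl hydroxylase, were lower as well. Ak4 was at 23.5, 13.6 and 21.4 CPM in the 3 sgControl libraries, 14.6, 10.7 and 14.4 in sgCbfb, 7.25, 6.13 and 10.2 in sgCTCF, and 9.32, 7.55 and 8.52 in sgMed12. P4ha1 was at 50.9, 49.9 and 58.0 CPM in the 3 sgControl libraries, 60.5, 79.6 and 74.8 in sgCbfb, 20.4, 25.6 and 30.7 in sgCTCF, and 31.4, 20.1 and 28.7 in sgMed12. The sgCTCF and sgMed12 libraries of both genes lay below all sgControl and sgCbfb libraries, and the sgCbfb libraries of P4ha1 lay above sgControl. Ak4 fell with sgCTCF (log2 fold change -1.20 ± 0.26 SE, adjusted p = 0.00264), as did P4ha1 (log2 fold change -1.04 ± 0.18 SE, adjusted p = 0.000267). Compared with sgCbfb, P4ha1 was lower with sgCTCF (log2 fold change -1.46 ± 0.18 SE, adjusted p = 6.09e-07), and Ak4 did not pass (log2 fold change -0.70 ± 0.26 SE, adjusted p = 0.0522). The sgMed12 means were 43.4% of sgControl for Ak4 and 50.4% for P4ha1.

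Ddit4, an inhibitor of mTORC1, and Ndrg1, a stress-response gene, were low with sgMed12 and not with sgCTCF. Ddit4 was at 69.4, 87.7 and 81.1 CPM in the 3 sgControl libraries, 79.6, 108 and 89.4 in sgCbfb, 87.5, 85.2 and 86.4 in sgCTCF, and 26.3, 36.3 and 30.7 in sgMed12. Ndrg1 was at 22.7, 21.3 and 12.4 CPM in the 3 sgControl libraries, 49.5, 61.9 and 46.6 in sgCbfb, 20.4, 19.5 and 20.3 in sgCTCF, and 9.89, 6.68 and 7.95 in sgMed12. All sgMed12 libraries of both genes lay below all other libraries of the experiment, and the sgCTCF libraries overlapped with sgControl. With sgCTCF neither passed against sgControl, at 0.13 ± 0.14 (adjusted p = 0.664) for Ddit4 and 0.13 ± 0.22 (adjusted p = 0.785) for Ndrg1. The sgMed12 means were 39.2% of sgControl for Ddit4 (log2 ratio -1.35) and 43.5% for Ndrg1 (-1.20). Ndrg1 rose with sgCbfb (log2 fold change 1.47 ± 0.22 SE, adjusted p = 1.88e-05), where all 3 libraries were above all controls, and it was lower with sgCTCF than with sgCbfb (log2 fold change -1.34 ± 0.22 SE, adjusted p = 4.36e-05).

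Vegfa, an angiogenic growth factor, was higher in the sgCbfb and sgCTCF libraries. Vegfa was at 113, 108 and 100.1 CPM in the 3 sgControl libraries, 182, 231 and 177 in sgCbfb, 218, 233 and 217 in sgCTCF, and 149.8, 76.7 and 109 in sgMed12. The sgCbfb and sgCTCF values overlapped with each other and lay above all sgControl values, whereas the sgMed12 libraries spread to both sides of the controls, with replicate 2 the lowest. Vegfa rose with sgCbfb (log2 fold change 0.87 ± 0.16 SE, adjusted p = 0.000255) and with sgCTCF (log2 fold change 1.05 ± 0.16 SE, adjusted p = 4.78e-05). These 2 contrasts share the sgControl libraries.

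Higd1a, a small protein of the mitochondrial inner membrane, fell with sgCbfb. Higd1a was at 45.1, 44.9 and 42.9 CPM in the 3 sgControl libraries, 25.3, 33.3 and 25.9 in sgCbfb, 26.8, 28.7 and 40.7 in sgCTCF, and 29.7, 33.7 and 19.6 in sgMed12. All libraries of the targeted groups were below the lowest control. The sgCbfb result (log2 fold change -0.64 ± 0.19 SE, adjusted p = 0.0262) was lost without sgControl replicate 1 (adjusted p = 0.0855), 2 (0.0741) or 3 (0.0635) and without sgCbfb replicate 1 (0.105) or 3 (0.0991), and also without the filter (0.0619). Higd1a did not pass with sgCTCF (log2 fold change -0.48 ± 0.19 SE, adjusted p = 0.127). Leaving out libraries in turn, the number of listed genes passing for sgCbfb ranged from 2 to 6, the lowest without sgCbfb replicate 1. It was 3 when sgControl replicate 1, 2 or 3 or sgCbfb replicate 3 was left out. These counts are given without the shares of all genes, and nothing about the list was read from them.

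The hypoxia targets that did not pass for sgCTCF against sgControl also included the histone demethylase Kdm3a (-0.32), P4ha2 (0.07) and the repressor Bhlhe40 (0.23). Against sgCbfb, Kdm3a was lower and passed (log2 fold change -0.51 ± 0.16 SE, adjusted p = 0.0185). That call was lost without sgCbfb replicate 2 (adjusted p = 0.0719) and without sgCTCF replicate 1 (0.0852) or 2 (0.0502).

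The sgMed12 libraries were also set beside the other targeted groups, as a description because they are the libraries from which the genes were selected. Relative to sgCbfb the median log2 ratio was -0.62 (-0.01 over all genes), 32 of 34 means were lower, and every sgMed12 library was below every sgCbfb library for 21 genes, against 15.2% of all genes. Relative to sgCTCF the median was 0.03 (-0.01 over all genes) and 16 of 34 means were lower. Every sgMed12 library lay below every sgCTCF library for 5 genes, against 17.6% of all genes. They were Ddit4 (log2 ratio -1.47), Ndrg1 (-1.30), Vegfa (-0.99), Hif1a (-0.88) and Egln1 (-0.66), and every sgMed12 library lay above every sgCTCF library for 1 gene, Hk2 (0.36), against 14.7% of all genes. Egln1 and Hk2 are named here after their values were seen. Without sgMed12 replicate 2 the medians were -0.60 relative to sgCbfb and 0.05 relative to sgCTCF, with 30 and 16 lower means, and both remaining libraries lay below all sgCbfb libraries for 25 genes (against 26.4% of all genes) and below all sgCTCF libraries for 7 (against 28.9%). They lay above all sgCTCF libraries for 9 genes, against 25.3% of all genes, and above all sgCbfb libraries for 1, against 22.4%.

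**Figure D3:**
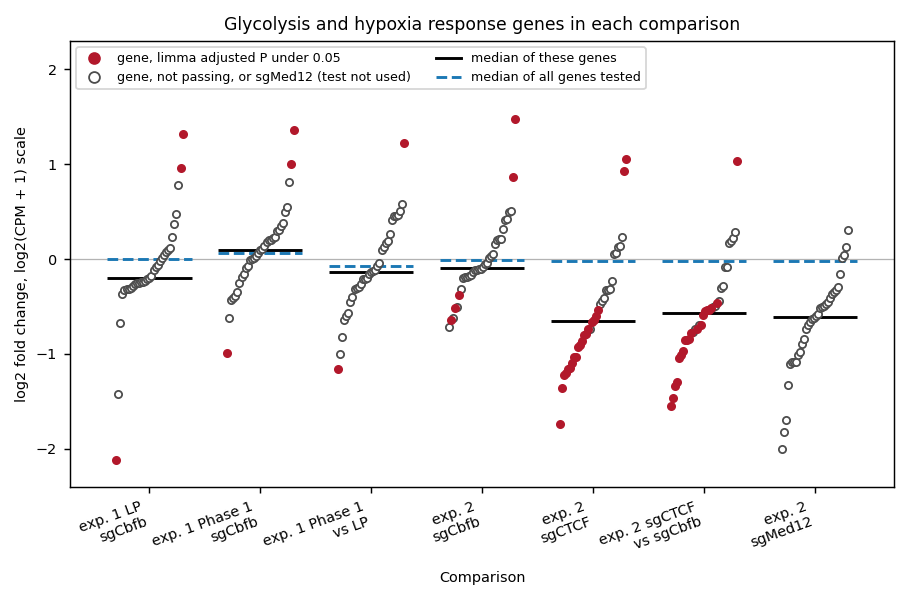
Limma log2 fold changes (vertical, from log2(CPM + 1), for sgMed12 too) of the listed genes in 7 comparisons (horizontal), with 1 point per gene, filled red where limma passed and unfilled for sgMed12, whose test was not used. Black lines are medians of the listed genes and blue dashed lines medians of all genes tested, which were -0.65 and -0.02 for sgCTCF against sgControl.

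Markers of other cell types were read in the same libraries. The summed level of 12 OP9 stroma genes was 29.3, 3.84 and 0.49 CPM in the sgControl libraries, 19.7, 10.5 and 2.27 in sgCbfb, 31.4, 25.9 and 15.2 in sgCTCF and 40.7, 5.23 and 19.0 in sgMed12. The stroma genes overlapped between the groups, Col3a1, Dcn and Postn were at 0 in every library, and the most abundant of them in the sgCTCF libraries were Col1a2 or Fn1. Of 7 myeloid genes, mostly Fcgr3, the sums were 52.7, 54.9 and 58.7 CPM with sgControl, 135, 127 and 88.4 with sgCbfb, 122, 91.6 and 91.5 with sgCTCF and 97.8, 75.3 and 88.8 with sgMed12, all targeted groups above sgControl. Not all members moved alike. Means with sgControl and sgCTCF were 38.0 and 80.9 CPM for Fcgr3 and 8.56 and 14.6 for Itgam, but 5.28 and 1.87 for Mpo and 0.985 and 0.231 for Lyz2. These genes were named after their values were seen. The globin gene Hbb-bt, named after its values were seen, was at 127, 134 and 143 CPM with sgControl, 952, 792 and 845 with sgCbfb, 57.4, 79.4 and 89.2 with sgCTCF and 94.4, 134 and 144 with sgMed12. All 7 lymphoid progenitor genes were above 0 in every library and differed between the groups in either direction. Their means in CPM, with sgControl, sgCbfb, sgCTCF and sgMed12 in this order, were 165, 101, 205 and 136 for Il7r; 276, 219.7, 216 and 176 for Flt3; 37.2, 68.6, 20.01 and 32.8 for Kit; 30.6, 278, 23.0 and 10.1 for Dntt; 9.69, 67.6, 5.42 and 8.77 for Rag1; 556, 377, 696 and 474 for Ptprc; 239, 507, 124 and 339.9 for Cd34. The part of these cells in the results was not tested.

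Phase 1 T progenitor genes summed to 31.4, 29.2 and 25.1 CPM with sgControl, 54.2, 77.0 and 41.1 with sgCbfb, 62.2, 61.3 and 62.9 with sgCTCF and 55.4, 42.7 and 49.1 with sgMed12. Each targeted group was above sgControl on this sum of 7 genes, through different genes. The means in the order used above were 2.54, 0, 18.0 and 3.03 for Tcf7; 20.1, 23.5, 20.7 and 26.0 for Gata3; 0.845, 22.5, 2.07 and 1.42 for Il2ra; 2.35, 6.63, 15.2 and 15.7 for Hes1; 0, 0.0893, 0 and 0 for Dtx1; 1.11, 4.67, 2.82 and 2.09 for Notch3; 1.63, 0, 3.36 and 0.854 for Cd3g. The B lineage genes, mostly Ebf1, summed to 318, 298 and 244 CPM with sgControl, 165, 218 and 187 with sgCbfb, 198, 209.9 and 228 with sgCTCF and 345, 208 and 295 with sgMed12. Among them, and named after its values were seen, Pax5 had means of 8.58, 0.932, 22.0 and 6.30 CPM in that order. The part of these genes in the results was not tested. Cd79a was at 0 in every library of both experiments. Reads of Ebf1 were present in all libraries, although the lines are Ebf1-deficient, and such reads do not show a functional protein.

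Further genes of the same pathways, without the 35, were counted by list. For sgCTCF against sgControl, 2 of 21 other genes of glycolysis and pyruvate fell, the kinase Pdk3 (-0.64 ± 0.18, adjusted p = 0.0257) and the monocarboxylate transporter Slc16a1 (-0.63 ± 0.13, adjusted p = 0.00159), and the median was -0.06. Of 28 other hypoxia-response genes, 5 fell and 1 rose, with a median of -0.25. Of all genes, 4.2% fell and 6.13% rose. The metallothioneins Mt1 (-1.75 ± 0.14, adjusted p = 5.96e-09) and Mt2 (-2.07 ± 0.32, adjusted p = 7.61e-05) and the secreted hormone Stc2 (-1.20 ± 0.31, adjusted p = 0.0116) fell most, and the lysyl oxidase Loxl2 rose (2.74 ± 0.38, adjusted p = 2.11e-05). The other 2 that fell were Fam162a (-1.03) and Ero1l (-0.84), named after their values were seen. Mt1 was at 121, 119 and 91.3 CPM with sgControl, 34.3, 29.2 and 32.6 with sgCTCF and 81.1, 92.7 and 65.3 with sgMed12. Loxl2 was at 2.37, 2.07 and 3.17 CPM with sgControl, 17.7, 27.8 and 22.9 with sgCTCF and 0.847, 0 and 0.567 with sgMed12. The sgCTCF libraries of both genes did not overlap with those of the other groups. Pdk3 no longer passed without sgControl replicate 2 (adjusted p = 0.115) or 3 (0.0657) or sgCTCF replicate 1 (0.12), 2 (0.0574) or 3 (0.0615), or without the filter (0.0644). Stc2 no longer passed without sgControl replicate 2 (adjusted p = 0.0553) or sgCTCF replicate 2 (0.0559) or 3 (0.0529), nor did Ero1l without sgCTCF replicate 2 (adjusted p = 0.0727).

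Of 7 pentose phosphate genes, the transketolase Tkt fell with sgCTCF (-0.54 ± 0.11, adjusted p = 0.00147). None of 10 HIF regulators (median -0.07) and none of 16 TCA cycle genes (median -0.11) passed limma for sgCTCF, with 1 and 4 at an unadjusted p under 0.05, 1 and 0 by edgeR, and 0 and 0 by DESeq2. Of all 13177 genes, 3008 were at an unadjusted p under 0.05 in this contrast, and edgeR called 1331 and DESeq2 1289. Median log2 ratios of the means for sgMed12 were -0.04 (other glycolysis and pyruvate), -0.30 (other hypoxia response), -0.08 (HIF regulators), -0.28 (pentose phosphate) and -0.18 (TCA cycle). For sgCbfb in experiment 2, 5 of 82 genes in the 5 further lists fell, against 5.57% of all genes, and 3 rose, against 6.91%. The phosphoglucomutase Pgm1 (-0.77 ± 0.15, adjusted p = 0.000547), the transferrin receptor Tfrc (-0.93 ± 0.10, adjusted p = 1.16e-07), the hydroxylase partner P4hb (-0.30 ± 0.09, adjusted p = 0.0319) and the succinyl-CoA ligase subunit Suclg1 (-0.39 ± 0.13, adjusted p = 0.0455) fell, as did Slc2a6 at a mean below 10 CPM. Cited2, which competes with HIF for its coactivator, rose (0.60 ± 0.12, adjusted p = 0.00107), as did Hif3a and Pgam2 at means below 10 CPM. Slc2a6, Hif3a and Pgam2 were named after their values were seen. P4hb no longer passed without sgControl replicate 1 (adjusted p = 0.124), 2 (0.0736) or 3 (0.0711) or sgCbfb replicate 1 (0.0584), 2 (0.0555) or 3 (0.143). Suclg1 no longer passed without sgControl replicate 1 (adjusted p = 0.179), 2 (0.0736) or 3 (0.0944), sgCbfb replicate 1 (0.178) or 2 (0.124), sgCTCF replicate 1 (0.0603), 2 (0.0632) or 3 (0.0627) or sgMed12 replicate 3 (0.0582), or with a pseudocount of 0.1 CPM (0.0544) or without the filter (0.109). Slc2a6 no longer passed without sgControl replicate 2 (adjusted p = 0.0506) or sgCbfb replicate 3 (0.0571).

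For sgCTCF against sgCbfb, where 10.9% of all genes were lower and 11.5% higher, 3 of 21 other glycolysis and pyruvate genes were lower and passed, Pfkm (-0.82 ± 0.21, adjusted p = 0.00463), Pdk3 (-0.58 ± 0.18, adjusted p = 0.0251) and Pgam2 at a mean below 10 CPM, and 1 was higher, Slc2a6, at a mean below 10 CPM. Of 28 other hypoxia-response genes, 8 were lower and 4 higher. The lowest ratios were those of Mt2 (-1.92 ± 0.32, adjusted p = 5.53e-05), Mt1 (-1.97 ± 0.14, adjusted p = 6.01e-11) and Stc2 (-1.34 ± 0.31, adjusted p = 0.00199), and higher were Loxl2 (3.44 ± 0.38, adjusted p = 1.37e-07), Ppfia4 (1.13 ± 0.29, adjusted p = 0.00523) and Tfrc (0.92 ± 0.10, adjusted p = 8.86e-08). Cited2 (-0.34 ± 0.12, adjusted p = 0.0437) and Hif3a, at a mean below 10 CPM, were the 2 HIF regulators that were lower. Tkt (-0.65 ± 0.11, adjusted p = 6.08e-05) was lower and Rpia (0.68 ± 0.17, adjusted p = 0.00464) higher among the pentose phosphate genes, and Sdhb (0.44 ± 0.11, adjusted p = 0.00456) and Suclg1 (0.40 ± 0.13, adjusted p = 0.0235) were higher among the TCA cycle genes. Lox was the fourth higher hypoxia-response gene. Slc2a6, Pgam2, Hif3a and Lox were named after their values were seen. Pdk3 was lost without sgCbfb replicate 1 (adjusted p = 0.0878) or 2 (0.061) or sgCTCF replicate 1 (0.107) or 3 (0.0564), or without the filter (0.0558). Pgam2 was lost without sgCbfb replicate 1 (adjusted p = 0.0607), 2 (0.0793) or 3 (0.0866) or sgCTCF replicate 3 (0.198), or with a pseudocount of 0.1 CPM (0.148), by edgeR (0.141) or by DESeq2 (0.192). Cited2 was lost without sgControl replicate 3 (adjusted p = 0.0519), sgCbfb replicate 1 (0.174) or 2 (0.111) or sgCTCF replicate 2 (0.0976) or 3 (0.202), or without the filter (0.087), with median-of-ratios scaling (0.0535), with totals without mitochondrial and the 10 most abundant genes (0.0553), by edgeR (0.0603) or by DESeq2 (0.0577). Suclg1 was lost without sgCbfb replicate 1 (adjusted p = 0.112) or 2 (0.0666) or sgCTCF replicate 1 (0.0819), 2 (0.0665) or 3 (0.0536), or without the filter (0.06). Lox was lost without sgControl replicate 2 (adjusted p = 0.0514), sgCbfb replicate 2 (0.161) or 3 (0.165) or sgCTCF replicate 1 (0.173) or 2 (0.116), or with a pseudocount of 5 CPM (0.0583), without the filter (0.0675), by edgeR (0.106) or by DESeq2 (0.124). Of the 8 lower hypoxia-response genes, 2 named here for the same reason also lost their calls. Car9 did so without sgCbfb replicate 2 (adjusted p = 0.0755) or sgCTCF replicate 3 (0.0837), or without the filter (0.0741), and Zfp395 without sgControl replicate 1 (adjusted p = 0.057), 2 (0.0522) or 3 (0.0548), sgCbfb replicate 1 (0.062), 2 (0.134) or 3 (0.108) or sgCTCF replicate 1 (0.081), 2 (0.11) or 3 (0.108), or with median-of-ratios scaling (0.0535), with totals without mitochondrial and the 10 most abundant genes (0.0561) or by DESeq2 (0.066).

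In experiment 1 the stage comparison asked what 2 days of Notch stimulation changed. With sgControl, 1 of 33 genes rose from LPs to Phase 1 cells, the hydroxylase Egln3, against 3.26% of all 13239 genes, and 1 fell, Vegfa, against 3.23%. The median was -0.14 over the 33 genes and -0.07 over all genes. With sgCbfb, Egln3 and Ddit4 rose from LPs to Phase 1 cells, 2 of 33 against 1.28% of all genes, and Vegfa fell, 1 of 33 against 0.959%, with medians of 0.14 and -0.01. In the sgControl comparison the shares of the list were near those of all genes.

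Egln3 was at 37.2, 29.7 and 42.4 CPM in sgControl LPs, 41.6, 47.0 and 24.3 in sgCbfb LPs, 78.3, 65.8 and 121 in sgControl Phase 1 cells, and 83.0, 66.6 and 81.9 in sgCbfb Phase 1 cells. Vegfa was at 146, 118 and 123 CPM in sgControl LPs, 295, 215 and 246 in sgCbfb LPs, 61.4, 65.2 and 46.2 in sgControl Phase 1 cells, and 131, 102 and 114 in sgCbfb Phase 1 cells. Every Phase 1 library was above every LP library for Egln3, and for Vegfa every Phase 1 library was below the LP libraries of its own genotype. Egln3 rose with sgControl (log2 fold change 1.22 ± 0.25 SE, adjusted p = 0.00357) and with sgCbfb (log2 fold change 1.06 ± 0.25 SE, adjusted p = 0.0242), and Vegfa fell with sgControl (log2 fold change -1.16 ± 0.17 SE, adjusted p = 8.07e-05) and with sgCbfb (log2 fold change -1.11 ± 0.17 SE, adjusted p = 0.000317). The Egln3 call with sgCbfb was lost without LP sgCbfb replicate 1 (adjusted p = 0.0505) or 3 (0.171) and without Phase 1 sgCbfb replicate 1 (0.126), 2 (0.0556) or 3 (0.116). When only the groups compared were fitted, Egln3 no longer passed with sgControl (adjusted p = 0.0511) or with sgCbfb (0.0705). Phase 1 sgControl replicate 3, which stood apart, had the highest Egln3 value. Without it 4 of the 33 genes passed in place of 2, with Bnip3 and Hk1 lower in Phase 1 cells in addition. The share of all genes in that fit is not given, and nothing about the list was read from this rise.

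**Figure D4:**
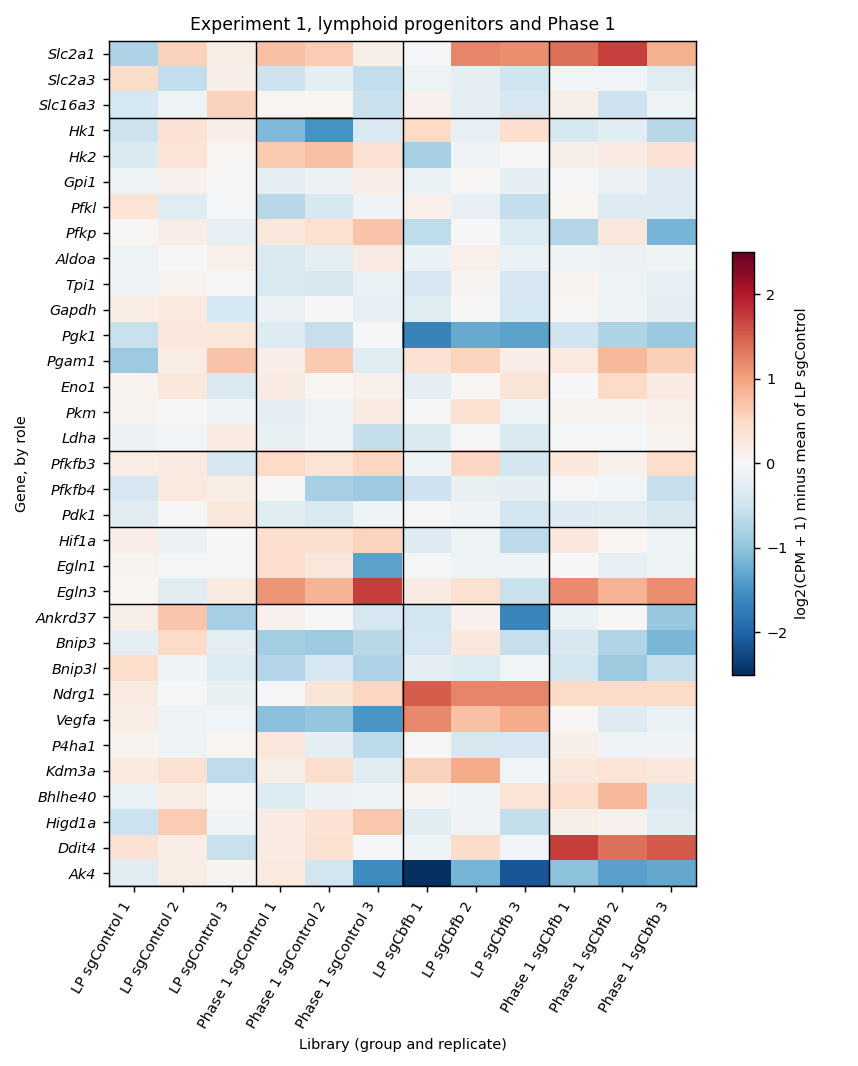
Heat map of the listed genes (vertical, by role) in the 12 libraries of experiment 1 (horizontal), colored by log2(CPM + 1) minus the mean of the LP sgControl libraries. Vegfa is above the LP controls in sgCbfb LPs (0.96, log2 fold change) and below them in sgControl Phase 1 cells (-1.16), and 30 of the 33 genes tested did not pass for sgCbfb in LPs.

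Targeting Cbfb in LPs raised Ndrg1 and Vegfa, 2 of 33 genes against 1.76% of all genes, and lowered Ak4, 1 of 33 against 1.09%. Medians were -0.20 over the 33 genes and 0.00 over all genes. Ndrg1 was at 18.3, 14.9 and 13.5 CPM in sgControl LPs, 45.8, 37.3 and 37.1 in sgCbfb LPs, 14.8, 19.4 and 22.7 in sgControl Phase 1 cells, and 22.0, 22.0 and 21.8 in sgCbfb Phase 1 cells. Ak4 was at 10.6, 14.9 and 13.5 CPM in sgControl LPs, 0.705, 5.16 and 2.14 in sgCbfb LPs, 15.5, 9.03 and 3.67 in sgControl Phase 1 cells, and 5.83, 4.40 and 4.71 in sgCbfb Phase 1 cells. Ndrg1 was higher in sgCbfb LPs than in every other library, and Ak4 was lower in sgCbfb LPs than in every sgControl LP library. Ndrg1 rose (log2 fold change 1.32 ± 0.28 SE, adjusted p = 0.00808), Vegfa rose (log2 fold change 0.96 ± 0.17 SE, adjusted p = 0.00135) and Ak4 fell (log2 fold change -2.11 ± 0.55 SE, adjusted p = 0.0377). Without LP sgCbfb replicate 1, Ndrg1 (adjusted p = 0.0612) and Ak4 (0.22) no longer passed, and 1 gene of the list was left. Without Phase 1 sgControl replicate 3, 4 genes passed, with Pgk1 in addition. Nothing about the list was read from these counts, given without the shares of all genes.

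The Ak4 call was also lost without LP sgControl replicate 1 (adjusted p = 0.0777), 2 (0.155) or 3 (0.127), LP sgCbfb replicate 3 (0.112) and Phase 1 sgCbfb replicate 1 (0.0532), 2 (0.0533) or 3 (0.0533), and with a pseudocount of 0.1 CPM (0.0667), without the filter (0.0908) or with only the groups compared (0.129). At this depth the lowest Ak4 value, 0.705 CPM in LP sgCbfb replicate 1, was 1 read.

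In Phase 1 cells, targeting Cbfb raised Ddit4 and Vegfa, 2 of 33 genes against 3.37% of all genes, and lowered Pfkp, 1 of 33 against 2.6%. Medians were 0.09 and 0.06. Ddit4 was at 76.1, 66.9 and 39.8 CPM in sgControl LPs, 54.3, 81.5 and 56.4 in sgCbfb LPs, 67.8, 76.8 and 57.9 in sgControl Phase 1 cells, and 198, 155 and 171 in sgCbfb Phase 1 cells. Pfkp was at 56.7, 62.5 and 48.2 CPM in sgControl LPs, 35.3, 55.1 and 43.5 in sgCbfb LPs, 67.8, 72.3 and 91.0 in sgControl Phase 1 cells, and 33.1, 67.9 and 24.2 in sgCbfb Phase 1 cells. All sgCbfb Phase 1 libraries were above all other libraries for Ddit4, and for Pfkp replicates 1 and 3 were the lowest of the experiment while replicate 2 overlapped with the controls. Ddit4 rose against Phase 1 sgControl (log2 fold change 1.36 ± 0.22 SE, adjusted p = 0.000285) and against sgCbfb LPs (log2 fold change 1.45 ± 0.22 SE, adjusted p = 0.00031), and Vegfa rose (log2 fold change 1.0 ± 0.17 SE, adjusted p = 0.000475). Pfkp fell (log2 fold change -0.99 ± 0.28 SE, adjusted p = 0.037), which was lost without Phase 1 sgCbfb replicate 1 (adjusted p = 0.159) or 3 (0.237), Phase 1 sgControl replicate 2 (0.0613), LP sgControl replicate 2 (0.0524) and LP sgCbfb replicate 3 (0.052), and with a pseudocount of 0.1 CPM (0.0557), without the filter (0.0581) or with only the groups compared (0.2). Without Phase 1 sgControl replicate 3, which stood apart, the same 3 genes passed.

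The test of whether the sgCbfb effect differed between Phase 1 cells and LPs (interaction) passed for 1 of 33 genes, Ddit4, in the higher direction (log2 fold change 1.26 ± 0.31 SE, adjusted p = 0.046), against 0.612% of all genes. In the lower direction limma called 0 of 33, against 0.657% of all genes. At an unadjusted p under 0.05 there were 4 of the 33 genes in either direction, against 1364 of all 13239 genes. The edgeR and DESeq2 tests each called 1 listed gene in all, against 185 and 203 of all genes. The Ddit4 call was lost without LP sgControl replicate 1 (adjusted p = 0.147) or 2 (0.149), Phase 1 sgControl replicate 1 (0.0568), LP sgCbfb replicate 1 (0.132) or 3 (0.147) and Phase 1 sgCbfb replicate 1 (0.159), 2 (0.0793) or 3 (0.118). It was also lost with a pseudocount of 0.1 CPM (adjusted p = 0.0774) or without the filter (0.0757). For Vegfa the sgCbfb effect was 0.96 in LPs and 1.0 in Phase 1 cells, and the interaction did not pass (log2 fold change 0.04 ± 0.24 SE, adjusted p = 0.978).

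**Figure D5:**
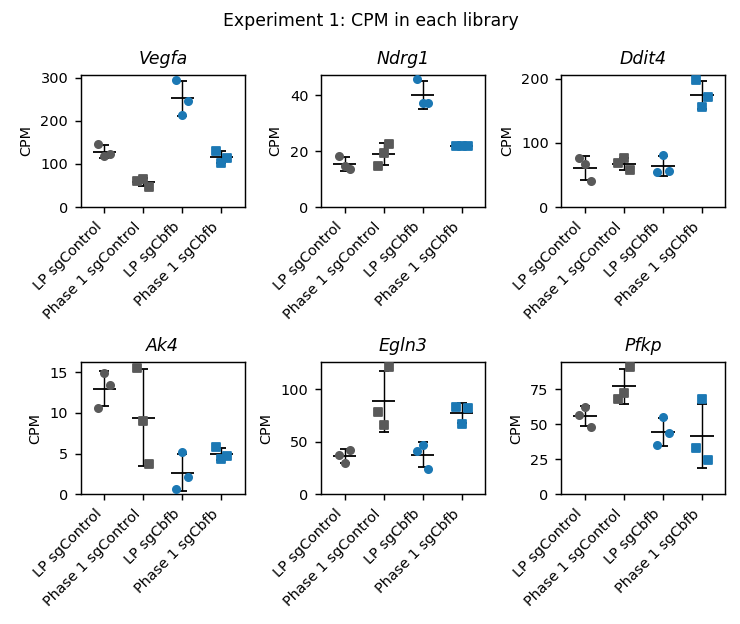
Levels (CPM, vertical) of 6 genes in each library of experiment 1 by group (horizontal), with circles for LPs, squares for Phase 1 cells and bars for mean ± SD. Vegfa is higher with sgCbfb at both stages, Ddit4 is high in sgCbfb Phase 1 cells (198, 155 and 171 CPM), and Egln3 is higher in Phase 1 cells of both genotypes.

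Of 83 genes in the further lists in experiment 1, 2 fell, against 1.09% of all genes, and 2 rose, against 1.76%, with sgCbfb in LPs. Pgm1 (-1.02 ± 0.18, adjusted p = 0.00165) and Tfrc (-0.65 ± 0.13, adjusted p = 0.0054) fell, while Cited2 (0.72 ± 0.19, adjusted p = 0.0443) and the succinyl-CoA ligase subunit Sucla2 (0.81 ± 0.22, adjusted p = 0.0491) rose. Cited2 no longer passed without LP sgControl replicate 1 (adjusted p = 0.157), 2 (0.172) or 3 (0.075), LP sgCbfb replicate 1 (0.112), 2 (0.19) or 3 (0.104) or Phase 1 sgCbfb replicate 3 (0.0651), or with a pseudocount of 0.1 CPM (0.0649), without the filter (0.0728) or with totals without mitochondrial and the 10 most abundant genes (0.0571). Sucla2 no longer passed without LP sgControl replicate 1 (adjusted p = 0.173), 2 (0.114) or 3 (0.106), LP sgCbfb replicate 1 (0.143), 2 (0.172) or 3 (0.106) or Phase 1 sgCbfb replicate 1 (0.0642), 2 (0.0697) or 3 (0.0688), or with a pseudocount of 0.1 CPM (0.0525) or without the filter (0.0584).

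With sgCbfb in Phase 1 cells 2 of the 83 genes fell, against 2.6% of all genes, and 1 rose, against 3.37%, where Pgm1 (-0.68 ± 0.18, adjusted p = 0.0271) and the pentose phosphate lactonase Pgls (-0.51 ± 0.14, adjusted p = 0.0254) fell, while Cited2 rose (1.05 ± 0.19, adjusted p = 0.0012). Pgm1 was lost without Phase 1 sgControl replicate 2 (adjusted p = 0.0521) or 3 (0.0613) or Phase 1 sgCbfb replicate 1 (0.0725), 2 (0.0875) or 3 (0.0848), and with only the groups compared (0.0537). Pgls was lost without Phase 1 sgControl replicate 3 (adjusted p = 0.102) or Phase 1 sgCbfb replicate 1 (0.0892), 2 (0.0881) or 3 (0.0843), and with only the groups compared (0.172), as was Cited2 in that fit (0.0567). From LPs to Phase 1 cells with sgControl, Cited2 (-1.27 ± 0.19, adjusted p = 0.000131) and Tfrc (-0.90 ± 0.13, adjusted p = 9.47e-05) fell and the transaldolase Taldo1 rose (0.50 ± 0.14, adjusted p = 0.0282), against 3.23% and 3.26% of all genes. Taldo1 was lost here without LP sgControl replicate 1 (adjusted p = 0.0704), 2 (0.0577) or 3 (0.117) or Phase 1 sgControl replicate 3 (0.0761), and with only the groups compared (0.11). Hif3a also rose, from 0 in all LP sgControl libraries to 4.24, 5.16 and 2.20 CPM in Phase 1 cells, and was named after its values were seen. With sgCbfb, Cited2 fell (-0.94 ± 0.19, adjusted p = 0.00692) and Taldo1 rose (0.60 ± 0.14, adjusted p = 0.0165) over the same interval, against 0.959% and 1.28% of all genes, Cited2 not without LP sgCbfb replicate 2 (adjusted p = 0.0554) or Phase 1 sgCbfb replicate 1 (0.0701) and Taldo1 not without LP sgCbfb replicate 1 (adjusted p = 0.104) or 3 (0.0905) or Phase 1 sgCbfb replicate 1 (0.127). In the interaction limma called 0 of the 83 genes of the 5 further lists, with 8 at an unadjusted p under 0.05, 1 by edgeR and 1 by DESeq2. Of all 13239 genes, limma called 0.612% higher and 0.657% lower, and 1364 were at an unadjusted p under 0.05. Over all genes edgeR called 185 and DESeq2 203.

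The Phase 1 T progenitor genes, among them Il2ra, Gata3 and Tcf7, separated the stages. Their summed level was 55.5, 37.8 and 42.4 CPM in sgControl LPs, 80.4, 68.8 and 81.3 in sgCbfb LPs, 1009, 924 and 841 in sgControl Phase 1 cells and 349, 322 and 349 in sgCbfb Phase 1 cells, with Il2ra the most abundant in sgControl Phase 1 cells. Hbb-bt was at 109.8, 157 and 128 CPM in sgControl LPs, 566, 595 and 539 in sgCbfb LPs, 1564, 1549 and 1585 in sgControl Phase 1 cells and 2488, 2439.9 and 2650.2 in sgCbfb Phase 1 cells. The 12 OP9 stroma genes did not exceed 7.78 CPM in sum in any library of experiment 1. The myeloid genes summed to 73.2, 57.6 and 46.9 CPM in sgControl LPs, 135, 126 and 119 in sgCbfb LPs, 45.2, 51.0 and 62.4 in sgControl Phase 1 cells and 99.8, 79.2 and 77.2 in sgCbfb Phase 1 cells. In the same order the B lineage genes, mostly Ebf1, summed to 410.2, 323 and 297; 216, 169 and 179; 212, 174 and 150.4; and 181, 167 and 148 CPM.

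Single marker genes of experiment 1 are given as means in CPM for sgControl LPs, sgCbfb LPs, sgControl Phase 1 cells and sgCbfb Phase 1 cells, in this order. The lymphoid progenitor genes had 275, 256, 156 and 145 for Il7r; 273, 260.4, 36.1 and 98.5 for Flt3; 30.2, 97.1, 133 and 82.1 for Kit; 39.4, 251, 5.11 and 55.5 for Dntt; 20.7, 67.5, 15.7 and 55.0 for Rag1; 619.9, 501, 733 and 605 for Ptprc; 259.6, 526, 163 and 434 for Cd34. The Phase 1 T progenitor genes had 4.52, 4.83, 148 and 12.7 for Tcf7; 33.2, 36.9, 141 and 43.2 for Gata3; 2.61, 20.2, 371 and 115 for Il2ra; 1.63, 4.57, 85.9 and 95.7 for Hes1; 0.393, 0.711, 114 and 42.8 for Dtx1; 2.45, 7.82, 20.04 and 27.6 for Notch3; 0.411, 1.84, 44.1 and 2.51 for Cd3g. Several marker lists moved with the sgCbfb and Phase 1 groups, and their part in the results was not tested.

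The sgCbfb effect in LPs was measured in both experiments, with separate controls and separately normalized tables. Of 33 genes tested in both, 27 had estimates of the same sign, against 65.8% of all 12639 genes tested in both, and 2 passed in both (Vegfa and Ndrg1), against 2.73% of all genes. Vegfa was at 0.96 in experiment 1 and 0.87 in experiment 2, and Ndrg1 at 1.32 and 1.47, as log2 fold changes. Ak4, which fell in experiment 1, was at -0.50 ± 0.26 (adjusted p = 0.239) in experiment 2 and did not pass. The calls of experiment 2 that did not pass in experiment 1 were Egln1 (-0.08 in experiment 1), Higd1a (-0.31) and Ldha (-0.26). Whether these effects differed between the experiments was not tested.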

How the data were processed

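Gene expression was measured by 3′ tag sequencing in 24 libraries, 12 per experiment. The deposited tables, which the authors call TPM, hold CPM without correction for gene length: every library sums to the same total, and 100.0% were whole numbers of reads within a tolerance of 0.01 CPM. The submitters named fastp, STAR and the mm10 genome, and the counter, its strand setting and the annotation were not given in the sources used here. The authors' mean column was not used.

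The test was limma 3.58.1 (trend) on log2(CPM + 1) for genes that reached 1 CPM in 3 or more libraries, with 4 groups in each fit, two-sided, and p-values adjusted by Benjamini-Hochberg over all genes tested. Whole reads were also tested with edgeR 4.0.16 (quasi-likelihood, TMM) and DESeq2 1.42.0, which called 1331 and 1289 genes for sgCTCF against sgControl (R 4.3.3, Python 3.11.15). Alternatives changed the pseudocount, filter, scaling, groups in the fit, replicate block and thresholds, or left out each library.

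The members and lists were chosen with earlier results of these data known. Values in every library are given for the genes that passed in a contrast, up to 8 by size of log2 ratio with a mean above 10 CPM in either group, and for the 10 largest sgMed12 ratios. Of each further list, up to 3 passing genes per direction with such a mean are named, as are Cbfb, Ctcf and Med12. Gene positions and 3′ ends were taken from GENCODE M21 (GRCm38). The contrast of sgCTCF with sgCbfb and fits without the sgMed12 libraries were added after the data had been seen.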

Additional observations from a re-analysis of the deposited data

Results flagged for a closer look

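The interaction test gave a difference between the sgCbfb effects in Phase 1 cells and in LPs for Ddit4, at 1.26 ± 0.31 on the log2 scale (limma adjusted p = 0.046). The sgCbfb effect was 1.36 in Phase 1 cells and 0.10 in LPs. All 3 Phase 1 sgCbfb libraries (198, 155 and 171 CPM) lay above the other 9 libraries of experiment 1. Over all alternatives the adjusted p ranged from 0.00643 to 0.159, and 10 of 22 no longer passed.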

How the results depend on the processing

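Over 58 calls of listed genes and 1379 alternative values, 1275 kept their direction and their side of the threshold, 104 kept the direction and no longer passed, and 0 changed direction; 21 calls passed under every alternative run. For 52 calls of further genes and 1226 values these numbers were 1062, 164 and 0, with 11 calls passing throughout. The estimate could not move where the library left out lay outside the groups compared. Nor could it move where only the thresholds, the filter or the groups in the fit changed. Part of these values thus kept their direction by construction. The number of listed genes passing for sgCbfb in LPs of experiment 1 was 3 and ranged from 1 to 4 when 1 library was left out. For Phase 1 against LP with sgControl it was 2, with 1 when only the groups compared were fitted and 2 to 4 on leaving out 1 library. The interaction count of 1 became 0 with a pseudocount of 0.1 and without the filter, and 0 to 1 on leaving out 1 library. For sgCbfb in experiment 2 it was 5, with 1 under the thresholds of the study (fold above 2, mean above 10 CPM), 3 without the filter, 8 with only the groups compared, and 2 to 6 on leaving out 1 library. Under the same thresholds, with folds of the group means, sgCTCF gave 10 against sgControl, from 21, and 8 against sgCbfb, from 20. Pgk1 is among the 8 by its means (10.1 CPM with sgCTCF and 20.4 with sgCbfb), although its limma estimate was below 2-fold. On leaving out 1 library the counts of 21 and 20 were 17 to 21 and 17 to 23. Without the sgMed12 libraries in the fit, an alternative chosen after seeing the data, they were 22 and 24. The other counts, for sgCbfb in Phase 1 cells and for Phase 1 against LP with sgCbfb, were 3 each, with 2 to 3 on leaving out 1 library. The shares of all genes under these alternatives are not given, and nothing about the list was read from how these counts changed. The sgMed12 median of -0.65 was -0.54 with a pseudocount of 5, -0.61 with median-of-ratios scaling, -0.54 with totals without mitochondrial and the 10 most abundant genes, -0.55 to -0.69 on leaving out 1 library, and -0.63 without sgMed12 replicate 2. The cause was not tested.

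With a replicate block the counts for sgCbfb were 3 in LPs and 3 in Phase 1 cells. Those for Phase 1 against LP were 3 with sgControl and 3 with sgCbfb, and the interaction gave 1. In experiment 2 they were 5 for sgCbfb, 21 for sgCTCF against sgControl and 22 for sgCTCF against sgCbfb. The shares of all genes with the block are not given, and nothing about the list was read from these counts. The block thus added calls where the main counts were 2 (Phase 1 against LP with sgControl) and 20 (sgCTCF against sgCbfb), and these added calls were not used. Of the further genes Zfp395 (sgCTCF against sgCbfb) had an adjusted p of 0.0503 with the block. Libraries share only a number, and not every correlation between libraries of the same number, after removal of group means, was above 0.1: they were -0.038 to 0.14 in experiment 1 and -0.13 to 0.216 in experiment 2, where those among sgControl, sgCbfb and sgCTCF were all positive (0.047 to 0.216) and the negative ones involved sgMed12. Own numbers matched best in 10 of 18 comparisons of experiment 1 and 12 of 18 of experiment 2, a hint from the data and not the design. Depth limits genes of a few reads, such as Ak4 in experiment 1, where 3 reads were 1.72 to 2.2 CPM. Counting error alone is covered by such floors. The 3 replicates per group and the 3′ tags set the other limits.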
